A study of Mus musculus with 8 samples.

Results

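The mRNA of 9 transcription factors that direct myeloid cell fate was followed in cells labelled neutrophils and sorted from mouse tumours by their surface ICAM1. They are Spi1, Cebpa, Cebpb, Cebpd, Cebpe, Gfi1, Irf4, Irf8 and Maf, 9 of the 25572 genes in the count table, chosen by name as lineage regulators and matched by symbol, each to 1 gene identifier. The C/EBP factors and Gfi1 (5 genes) stand for the granulocyte side, Irf4, Irf8 and Maf (3 genes) for the macrophage and dendritic side, and Spi1 is shared by both. The cells came from PyMT-N tumours carried by C57/B6 mice, and the labels give neither the age nor the treatment of the animals, nor say more of the tumour. They were sorted by flow cytometry into an ICAM1-high fraction, called CD54-positive in the sample names, and an ICAM1-low fraction, called CD54-negative. Each fraction has 4 libraries, which carry the numbers 1, 2, 3 and 5, each made from 150 pg of total RNA.

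PU.1, the product of Spi1, is an ETS factor that opens the genes of all myeloid cells. C/EBP-alpha starts the granulocyte program, C/EBP-epsilon completes it by switching on the genes of the specific granules, and C/EBP-beta drives the emergency production of granulocytes and also acts in macrophages. GFI1 is a repressor that favours neutrophils over monocytes. IRF8 turns progenitors away from the neutrophil fate towards monocytes and dendritic cells, IRF4 acts in dendritic cells, in macrophages and in lymphocytes, and MAF keeps mature macrophages from dividing.

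Library totals ran from 15940328 to 21825096 estimated counts, and 3 counts, used below as the floor of detection, were worth 0.12 to 0.262 CPM (counts scaled by the TMM-adjusted library size). The label cell type was neutrophil. Ly6g, which encodes a surface protein of mouse neutrophils, was measured at 0.0947 to 3.98 CPM in ICAM1-high libraries and at 25.8 to 40.9 CPM in ICAM1-low libraries, and Adgre1, which encodes the macrophage antigen F4/80, at 223 to 292 CPM in ICAM1-high libraries and at 17.1 to 60.9 CPM in ICAM1-low libraries. Ly6g was thus near 0 in the ICAM1-high libraries, and Adgre1 was far above it in CPM. Adgre1 was also above Ly6g in CPM in ICAM1-low replicates 2 (60.9 against 38.7 CPM) and 5 (52.7 against 39.7 CPM). CPM take no account of gene length, so such small gaps do not show which gene had more transcripts. Other neutrophil markers varied in level in the ICAM1-high libraries. S100a9 stood there at 178 to 950 CPM and Mmp9 at 615 to 1521 CPM, but Camp at 0.385 to 24.2 CPM. In ICAM1-low libraries S100a9 stood at 1586 to 4667 CPM, Mmp9 at 1311 to 3483 CPM and Camp at 24.9 to 515 CPM. Whether the label holds was not tested, so the cells are called by their sort fraction. Icam1 itself, whose protein the cells were sorted on, stood at 48.0, 58.2, 42.3 and 121 CPM in ICAM1-high replicates 1, 2, 3 and 5, against 18.6, 9.20, 4.30 and 137 CPM in ICAM1-low replicates 1, 2, 3 and 5. Icam1 mRNA went against the label in the library labelled ICAM1-low replicate 5, so the factors are also given without it. With all 8 libraries Icam1 did not pass the edgeR test described below (log2 fold change 0.67 ± 0.92 SE, edgeR adjusted p = 0.754). Without that library Icam1 did pass (2.64, edgeR adjusted p = 0.0483). The labels do not say whether replicates are separate animals. All p-values therefore rest on the spread among these 8 libraries, some of which may be technical.

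Irf8 was the only one of the 9 factors to pass the test between the fractions, and it rose in ICAM1-high cells. Of the 9, 7 had enough counts to be tested, and 1 was higher and 0 were lower at an adjusted p under 0.05 (edgeR quasi-likelihood test, Benjamini-Hochberg adjustment over all 13575 genes tested). Over all genes tested, 166 (1.22%) were higher and 37 (0.273%) were lower. At an unadjusted p under 0.05, 4 of the 7 factors were higher (Irf8, Irf4, Maf and Cebpa), against 7.96% of all genes, and 1 was lower (Cebpd), against 8.96%. DESeq2 called 3 factors higher and 0 lower, with 4.53% of genes higher and 5.03% lower. In limma-voom with sample weights (limma-voom below) 2 factors were higher and 0 lower, with 3.54% of genes higher and 2.77% lower. Without the library labelled ICAM1-low replicate 5, edgeR again called 1 factor higher, Irf8, and 0 lower, with 2.36% of genes higher and 1.69% lower. Of all called genes, 1.5% of those tested, 81.8% were higher. Over all genes tested the median log2 fold change was -0.07, and upper-quartile scaling and library sizes alone moved it by 0.13 and 0.24.

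**Figure D1:**
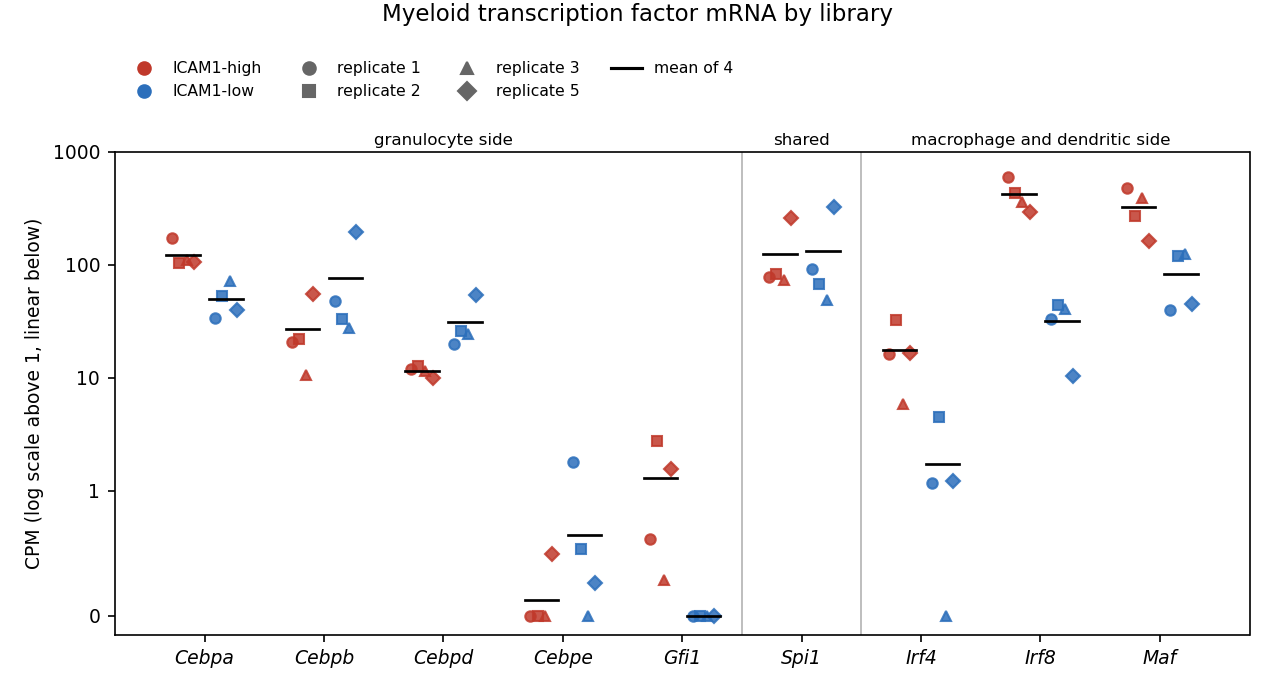
CPM of the 9 factors in every library (vertical axis, logarithmic above 1 and linear below), with ICAM1-high libraries in red left of ICAM1-low libraries in blue, 1 symbol per replicate number and a black bar at the mean of 4. The red and blue points do not overlap for Cebpa, Cebpd, Gfi1, Irf4, Irf8 and Maf, with red lower for Cebpd only, and both libraries numbered 5 are the highest of their group for Spi1 and Cebpb.

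Irf8 (ENSMUSG00000041515) was measured at 598, 427, 358 and 296 CPM in ICAM1-high replicates 1, 2, 3 and 5, against 32.9, 43.6, 40.4 and 10.4 CPM in ICAM1-low replicates 1, 2, 3 and 5. Every ICAM1-high library was above every ICAM1-low library, the lowest of the first at 296 CPM and the highest of the second at 43.6 CPM. The means were 420 ± 130 CPM in ICAM1-high libraries and 31.8 ± 15 CPM in ICAM1-low ones (SD, n = 4 each), a difference of 3.72 ± 0.55 on the log2 scale (SE; edgeR adjusted p = 0.0125), or 13.2-fold. By its p-value Irf8 stood at rank 27 of all 13575 genes tested. These are bulk samples, in which more cells of a type and more RNA per cell cannot be told apart. Leaving out the library labelled ICAM1-low replicate 5 gave 3.43 (edgeR adjusted p = 0.0102). The call was lost without ICAM1-low replicate 1, with a difference of 3.73 on the log2 scale (edgeR adjusted p = 0.0521), a fit in which 4 genes in all were called higher.

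The promoter sequence of Irf8 is shown because this gene alone passed the test, with that of Irf4, the related factor, for comparison. RefSeq's promoter table, on build GRCm38.p6, held a sequence for 5 of the 9 factors (Cebpa, Cebpb, Gfi1, Irf4 and Irf8; unmatched were Spi1, Cebpd, Cebpe and Maf), and the 250 bases before the start were searched on both strands. The letters searched were TTNNGCAA (C/EBP), GAGGAA (ETS factors such as PU.1), GAAA and GAAA with 2 free bases between them (interferon response element), GGAA and GAAA with 2 free bases between them (ETS and IRF composite), TGCTGA (MAF) and, added after the Irf8 sequence was read, TTCNNNGAA (the STAT site known as GAS). Capitals mark matches.
Irf8, chr8:120736108-120736357, plus strand: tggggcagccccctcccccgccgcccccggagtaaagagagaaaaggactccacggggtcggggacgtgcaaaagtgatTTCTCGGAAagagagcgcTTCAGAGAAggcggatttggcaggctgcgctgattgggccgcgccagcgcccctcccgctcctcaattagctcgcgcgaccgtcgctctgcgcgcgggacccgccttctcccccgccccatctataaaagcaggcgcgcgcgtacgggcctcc
Irf4, chr13:30748983-30749232, plus strand: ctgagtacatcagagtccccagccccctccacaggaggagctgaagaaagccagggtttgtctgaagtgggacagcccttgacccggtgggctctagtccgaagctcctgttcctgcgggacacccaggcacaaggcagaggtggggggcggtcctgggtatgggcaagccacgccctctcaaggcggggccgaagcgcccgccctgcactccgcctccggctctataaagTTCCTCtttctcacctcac
The Irf8 window holds 2 matches to the GAS letters, which start at -171 and -153 from the gene's start. At least 1 such match was found in 7.02% of 32851 promoter windows of the same length, and 2 or more in 0.317%. Because these letters were chosen after the Irf8 sequence was read, the shares cannot say how unusual its matches are. The Irf4 window holds 1 match to the ETS letters on the minus strand, its first base at -19, as do 23.3% of all windows in at least 1 place. The second promoter that the table lists for Irf8 held 1 match to the MAF letters, found in 16.1% of windows. A promoter of Gfi1 held C/EBP letters, found in 9.56% of windows, that overlap MAF letters. The interferon response and composite letters, found in 2.98% and 2.3% of windows, were in none of the windows of these factors. The libraries were quantified on another build, GRCm39, and these matches describe letters only, and nothing was measured at these sites.

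Irf4 (ENSMUSG00000021356), which shares the DNA-binding fold of IRF8, was measured at 16.2, 32.3, 5.79 and 16.6 CPM in ICAM1-high replicates 1, 2, 3 and 5, against 1.17, 4.49, 0 and 1.22 CPM in ICAM1-low replicates 1, 2, 3 and 5. There was no overlap between the groups, although ICAM1-high replicate 3 and ICAM1-low replicate 2 were close. The log2 fold change of 3.36 ± 1.23 (SE, n = 4 each) did not pass the threshold (edgeR adjusted p = 0.204). It did so with DESeq2 (3.31, adjusted p = 0.0232), and it was 3.23 without the library labelled ICAM1-low replicate 5 (edgeR adjusted p = 0.192).

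Maf (ENSMUSG00000055435), a basic leucine zipper factor of macrophages and of some T cells, was measured at 477, 269, 388 and 162 CPM in ICAM1-high replicates 1, 2, 3 and 5, against 39.6, 120, 125 and 45.3 CPM in ICAM1-low replicates 1, 2, 3 and 5. There was no overlap between the groups, but the lowest ICAM1-high library, 162 CPM, was near the highest ICAM1-low library, 125 CPM. The means were 324 ± 137 CPM in ICAM1-high libraries and 82.6 ± 46.4 CPM in ICAM1-low ones (SD, n = 4 each), a difference of 1.97 ± 0.54 on the log2 scale (SE; edgeR adjusted p = 0.103). With DESeq2 and limma-voom Maf passed the threshold (log2 fold changes of 1.92 and 1.99, adjusted p = 0.0158 and 0.0279), and without the library labelled ICAM1-low replicate 5 it did not (1.78, edgeR adjusted p = 0.0844). All 3 factors of the macrophage and dendritic side were therefore higher in each of the 4 ICAM1-high libraries than in any ICAM1-low library. The same held for Cebpa and Gfi1 of the granulocyte side, and for 7.51% of the 13575 genes tested.

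Spi1 (ENSMUSG00000002111), the factor both lineages need, gave no direction. It was measured at 78.4, 82.7, 73.2 and 259 CPM in ICAM1-high replicates 1, 2, 3 and 5, against 91.9, 68.1, 48.4 and 324 CPM in ICAM1-low replicates 1, 2, 3 and 5. Most of the spread within each group came from the libraries numbered 5, which stood above 250 CPM in both groups while the other 6 lay between 48.4 and 91.9 CPM. The log2 fold change was -0.11 ± 0.67 (SE, n = 4 each; edgeR adjusted p = 0.951), and its sign turned to positive with upper-quartile scaling (0.051) and with library sizes only (0.26). Without the library labelled ICAM1-low replicate 5 it was 0.82 (edgeR adjusted p = 0.421).

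No factor of the granulocyte side passed the edgeR test, with 1 higher and 1 lower of the 3 tested at an unadjusted p under 0.05 and 0 called by DESeq2 or limma-voom. Cebpa (ENSMUSG00000034957), the factor that commits progenitors to the granulocyte and monocyte lineage, was measured at 172, 103, 110 and 107 CPM in ICAM1-high replicates 1, 2, 3 and 5, against 33.9, 53.0, 71.9 and 40.0 CPM in ICAM1-low replicates 1, 2, 3 and 5. All ICAM1-high libraries were above all ICAM1-low libraries. The log2 fold change was 1.31 ± 0.42 (SE, n = 4 each; edgeR adjusted p = 0.155), on the same side of 0 as those of Irf8 and Maf and of smaller size. Without the library labelled ICAM1-low replicate 5 it was 1.22 (edgeR adjusted p = 0.123).

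Cebpd and Cebpb had negative values. Cebpd (ENSMUSG00000071637), an acute-phase member of the family, was measured at 11.9, 12.7, 11.5 and 9.94 CPM in ICAM1-high replicates 1, 2, 3 and 5, against 19.8, 25.8, 24.5 and 53.8 CPM in ICAM1-low replicates 1, 2, 3 and 5. There was no overlap between the groups, and the ICAM1-high libraries were close to each other. The log2 fold change was -1.43 ± 0.55 (SE, n = 4 each; edgeR adjusted p = 0.219), and it was -1.02 without the library labelled ICAM1-low replicate 5 (edgeR adjusted p = 0.303) and -0.94 without both libraries numbered 5 (edgeR adjusted p = 0.441).

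Cebpb (ENSMUSG00000056501), the emergency granulopoiesis factor, was measured at 20.7, 21.9, 10.5 and 54.6 CPM in ICAM1-high replicates 1, 2, 3 and 5, against 47.4, 33.3, 27.6 and 196 CPM in ICAM1-low replicates 1, 2, 3 and 5. It was lower in ICAM1-high in all 4 same-numbered pairs, yet the groups overlapped, since ICAM1-high replicate 5 was above 3 of the ICAM1-low libraries. The log2 fold change was -1.5 ± 0.74 (SE, n = 4 each; edgeR adjusted p = 0.329). Most of that value rested on 1 library: without the library labelled ICAM1-low replicate 5 it was -0.43 (edgeR adjusted p = 0.733).

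The remaining factors, Cebpe and Gfi1, were at the edge of detection and were not tested. Cebpe (ENSMUSG00000052435), the factor of terminal granulocyte differentiation, had 0, 0, 0 and 9 estimated counts in ICAM1-high replicates 1, 2, 3 and 5, against 35, 9.01, 0 and 3 in ICAM1-low replicates 1, 2, 3 and 5. Gfi1 (ENSMUSG00000029275) had 13, 68, 6 and 28 estimated counts in ICAM1-high replicates 1, 2, 3 and 5, against 0 in all 4 ICAM1-low libraries. Its mean of 1.29 CPM in ICAM1-high libraries was at least 6.88-fold higher than in ICAM1-low libraries, taking 3 counts per library as the floor. With no filter on low counts Gfi1 could be tested and missed the threshold (edgeR adjusted p = 0.139), as did Cebpe (edgeR adjusted p = 0.515). Gfi1 also passed the filter without the library labelled ICAM1-low replicate 5 and missed the threshold there (edgeR adjusted p = 0.0701).

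Counted over all 9 factors, 5 had every ICAM1-high library above every ICAM1-low library (Cebpa, Gfi1, Irf4, Irf8 and Maf), 1 had every one below (Cebpd) and 3 overlapped (Cebpb, Cebpe and Spi1). Of the 7 tested factors 4 were above and 1 below, where 7.51% of the 13575 genes tested were above in this way and 3.89% below. The granulocyte side gave 2 above, 1 below and 2 overlapping, and the macrophage and dendritic side gave 3 of 3 above.

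**Figure D2:**
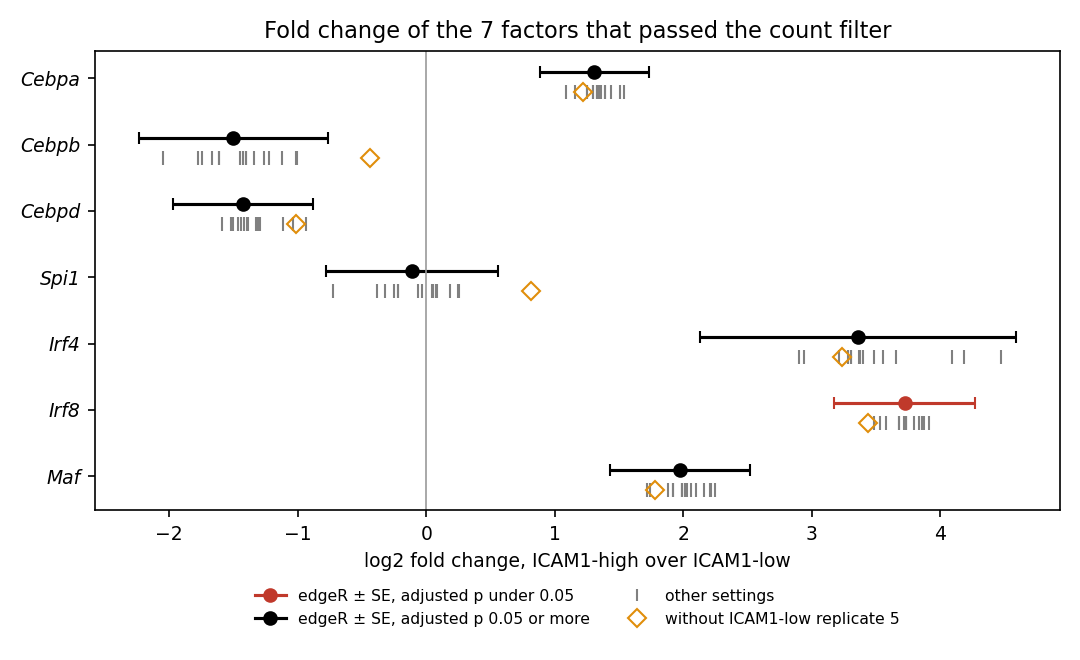
Log2 fold change of ICAM1-high over ICAM1-low (horizontal axis) for the 7 factors that were tested, as points with bars of 1 SE from edgeR, red where the adjusted p was under 0.05. Grey ticks show the other settings, and the open diamond is the fit without the library labelled ICAM1-low replicate 5, in which Spi1 moves to 0.82 and Cebpb to -0.43 while Irf8 stays at 3.43.

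Levels of different factors can be set side by side only per length, so counts were divided by the deposited gene length and scaled to an equal total in every library, a measure like TPM. In ICAM1-high libraries the order of mean level per length was Irf8 (278 ± 73.1), Spi1 (219 ± 140), Maf (176 ± 77.2), Cebpa (136 ± 27.6), Cebpb (119 ± 74.7), Cebpd (13.6 ± 2.68), Irf4 (6.04 ± 3.98), Gfi1 (1.05 ± 0.939) and Cebpe (0.262 ± 0.524; SD, n = 4). Neighbours among the first 5 overlapped in range, and Cebpb was above Cebpd with no overlap. In ICAM1-low libraries the order was Cebpb (299 ± 264), Spi1 (210 ± 166), Cebpa (52.6 ± 20.7), Maf (42.9 ± 26.5), Cebpd (32.5 ± 10.7), Irf8 (20.8 ± 10.8), Cebpe (1.5 ± 1.91), Irf4 (0.578 ± 0.692) and Gfi1 (0). There, Spi1 was above Cebpa and Irf8 above Cebpe with no overlap in range. By these lengths Irf8 held the first place by mean in ICAM1-high and the sixth in ICAM1-low libraries.

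The order depends in part on the lengths. The table gives Cebpb 360 bases, while the annotation GENCODE M21 lists 1 transcript of 1504 bases. With the longest M21 transcript of each factor as its length, Cebpb stood at 28.4 in ICAM1-high libraries and 71.4 in ICAM1-low ones, below Spi1 (97.3 in ICAM1-high libraries and 93.2 in ICAM1-low ones). Irf8 was again first in ICAM1-high libraries, and in ICAM1-low libraries it took the fifth place at 15, above Cebpd at 12.3.

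**Figure D3:**
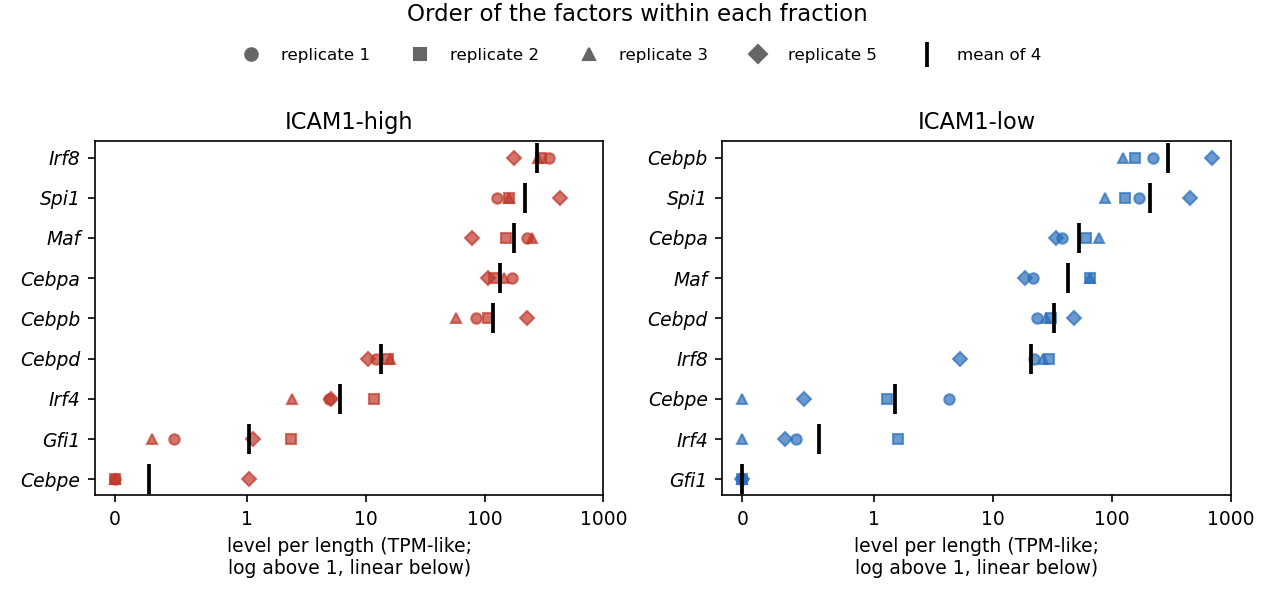
Level per length of the 9 factors in each library (horizontal axis, TPM-like, logarithmic above 1 and linear below), ordered by mean in the ICAM1-high libraries on the left and in the ICAM1-low libraries on the right, with 1 symbol per replicate number. Irf8 heads the left panel with a mean of 278 and is sixth in the right panel with a mean of 20.8.

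A ratio of a pair of factors within a library does not depend on how libraries are scaled. The ratio of Irf8 to Spi1 per length was 2.76, 1.87, 1.77 and 0.413 in ICAM1-high replicates 1, 2, 3 and 5, against 0.13, 0.232, 0.302 and 0.0116 in ICAM1-low replicates 1, 2, 3 and 5. There was no overlap between the groups, and in both groups the library numbered 5 had the lowest ratio. The ratio of Cebpa to Cebpb was 1.99, 1.13, 2.54 and 0.471 in ICAM1-high, against 0.172, 0.383, 0.627 and 0.049 in ICAM1-low replicates 1, 2, 3 and 5, and here ICAM1-high replicate 5 fell within the ICAM1-low range. Irf8 also exceeded Maf in every ICAM1-high library, with ratios of 1.14 to 2.26, and only in replicate 1 of the ICAM1-low libraries, where they ran from 0.285 to 1.03.

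The factors also differed in how they varied across the 8 libraries, given here as Pearson's r of log2(CPM + 1), a description over 8 libraries that share the sort, with no p. Cebpa, Irf8 and Maf varied together (r = 0.92 for Cebpa and Irf8, 0.95 for Cebpa and Maf, 0.91 for Irf8 and Maf), and Cebpd ran opposite to Irf8 (r = -0.93). Spi1 was most like Cebpb among the factors (r = 0.79). Among 8719 genes with a mean of at least 10 CPM, those most like Irf8 were Man1a, a mannosidase of N-glycan trimming, and Cd48, a leukocyte ligand of the SLAM family (r = 0.99 each). Cebpd was closest to Cxcr2, the chemokine receptor that recruits neutrophils, and to Igf1r, the insulin-like growth factor receptor (r = 0.99 and 0.98), and Cebpb to Plaur, the urokinase receptor, and Ypel3 (r = 0.99 and 0.98). Cebpa was closest to Gdpd1 and the chemokine gene Ccl9 (r = 0.98 each), Maf to Arl10 and Gdpd1 (r = 0.97 each), Irf4 to the interferon-inducible GTPase gene Gbp4 and to Uhrf2 (r = 0.96 each), and Spi1 to the RNA-binding protein gene Rbm42 and the splicing factor gene U2af2 (r = 0.98 each).

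Among 19 relatives of the 9 factors, 15 were tested, 1 rose and 0 fell, with a median log2 fold change of 0.32 against -0.07 over all genes. At an unadjusted p under 0.05, 3 were higher and 2 lower, and 3 rose without the library labelled ICAM1-low replicate 5. In the fit of all libraries it was Spib that rose, the ETS factor next of kin to PU.1 that is known from B cells and plasmacytoid dendritic cells. It was measured at 22.2, 49.3, 3.08 and 4.62 CPM in ICAM1-high replicates 1, 2, 3 and 5, against 0.153, 0.0591, 0.0531 and 0 CPM in ICAM1-low replicates 1, 2, 3 and 5. All 4 ICAM1-low libraries were at or under 3 counts, so the size of the fitted value, 8.0 ± 1.35 on the log2 scale (SE; edgeR adjusted p = 0.0187), is uncertain. The B cell genes Cd79a (30.2 CPM) and Ms4a1 (160 CPM) were highest in ICAM1-high replicate 2, the library with the most Spib, and the part of such cells in this result was not tested. The call of Spib was lost with limma-voom (adjusted p = 0.0678) and without ICAM1-high replicate 1 or 2 or ICAM1-low replicate 1 or 2 (edgeR adjusted p from 0.0617 to 0.0854).

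Irf5, the IRF factor of inflammatory macrophages, was measured at 166, 65.2, 119 and 281 CPM in ICAM1-high replicates 1, 2, 3 and 5, against 8.34, 12.8, 7.97 and 62.1 CPM in ICAM1-low replicates 1, 2, 3 and 5. There was no overlap between the groups, and the log2 fold change of 2.79 ± 0.77 missed the threshold (edgeR adjusted p = 0.103). Without the library labelled ICAM1-low replicate 5 it was 4.01 and past it (edgeR adjusted p = 0.0116). Spic, the ETS factor of red pulp macrophages, stood at 1.75 to 4.81 CPM in ICAM1-high libraries and at 0 to 0.51 CPM in ICAM1-low libraries (log2 fold change 4.32 ± 1.43; edgeR adjusted p = 0.164).

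Of 9 other regulators of granulocytes, none passed the edgeR threshold; at an unadjusted p under 0.05, 0 were higher and 4 lower, and the median was -1.80. DESeq2 and limma-voom each called 3 lower and 0 higher. Klf5, a Krüppel-like factor, was measured at 0, 0.482, 0.289 and 1.65 CPM in ICAM1-high replicates 1, 2, 3 and 5, against 15.5, 7.21, 4.72 and 29.7 CPM in ICAM1-low replicates 1, 2, 3 and 5 (log2 fold change -4.55 ± 1.31; edgeR adjusted p = 0.119). Id1, an inhibitor of helix-loop-helix factors, stood at 9.42 to 23.1 CPM in ICAM1-high libraries and at 43.8 to 188 CPM in ICAM1-low libraries (log2 fold change -2.60 ± 0.60; edgeR adjusted p = 0.0587). Neither gene overlapped between the groups. Rara, the retinoic acid receptor gene of granulocyte maturation, had a difference of -2.09 ± 0.63 on the log2 scale (edgeR adjusted p = 0.136). Leaving out the library labelled ICAM1-low replicate 5 gave -3.93 for Klf5, -1.92 for Id1 and -1.40 for Rara (edgeR adjusted p = 0.123, 0.0607 and 0.155).

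Of 22 other regulators of macrophages and dendritic cells, likewise none passed the edgeR threshold, with 6 higher and 5 lower at an unadjusted p under 0.05 and a median of 0.92. DESeq2 called 4 higher and 1 lower, limma-voom 4 higher and 2 lower, and edgeR 2 higher without the library labelled ICAM1-low replicate 5. Nr1h3, which encodes the oxysterol receptor LXR-alpha, was measured at 24.4, 21.6, 11.9 and 26.5 CPM in ICAM1-high replicates 1, 2, 3 and 5, against 0.868, 1.48, 0.106 and 3.41 CPM in ICAM1-low replicates 1, 2, 3 and 5 (log2 fold change 3.86 ± 0.97; edgeR adjusted p = 0.076). It was past the threshold with DESeq2 (adjusted p = 0.000444) and without the library labelled ICAM1-low replicate 5 (edgeR adjusted p = 0.0321). Id2, which dendritic cells need, averaged 301 ± 35.6 CPM in ICAM1-high libraries and 135 ± 14.5 CPM in ICAM1-low ones (SD, n = 4 each; log2 fold change 1.16 ± 0.36; edgeR adjusted p = 0.143). Bhlhe40, a helix-loop-helix repressor, went the other way, with 617 ± 114 CPM in ICAM1-high libraries and 1634 ± 387 CPM in ICAM1-low libraries (log2 fold change -1.40 ± 0.42; edgeR adjusted p = 0.132). Id2 and Bhlhe40 did not overlap between the groups.

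**Figure D4:**
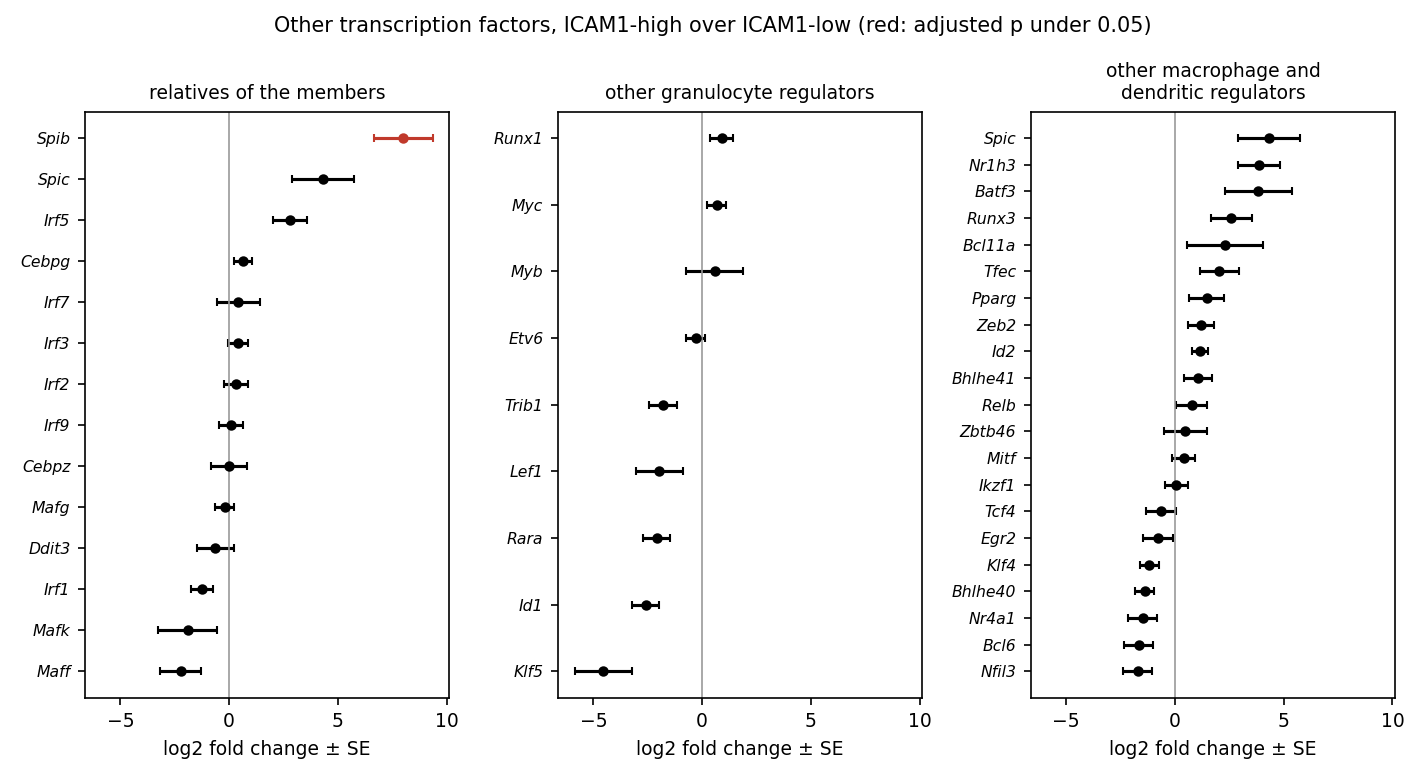
Log2 fold change of ICAM1-high over ICAM1-low with bars of 1 SE (horizontal axis) for genes of 3 lists of other transcription factors that were tested and are reported here, the relatives of the 9 factors on the left, other granulocyte regulators in the middle and other macrophage and dendritic regulators on the right. Spib, in red at 8.0, is the 1 gene of these lists past the threshold, and Klf5 has the lowest value at -4.55.

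Genes linked to these factors by general knowledge were read from 4 lists, which were chosen with earlier results of these data known. Their counts are therefore descriptions, to be read beside the 1.22% of all genes tested that were higher and the 0.273% that were lower. Whether the listed genes depend on the factors in these cells was not tested. Of 15 granule genes that need C/EBP factors, 12 were tested, 3 fell and 0 rose, and all 12 values were negative, with a median log2 fold change of -3.30. DESeq2 called 10 lower and limma-voom 8. Those that fell were Ngp, at 38.2 ± 25.6 CPM in ICAM1-high libraries and 607 ± 326 CPM in ICAM1-low libraries (log2 fold change -3.99 ± 0.71; edgeR adjusted p = 0.0239), Cd177 (-3.43 ± 0.65; edgeR adjusted p = 0.0318) and the lactoferrin gene Ltf (-3.71 ± 0.77; edgeR adjusted p = 0.043). All 3 calls were lost in 6 of the 8 fits that left out a single library, and held without the library labelled ICAM1-low replicate 5. Without ICAM1-low replicate 3, 5 genes of the list fell. Cebpe, the factor these specific granule genes are known to need, was at 0 to 35 estimated counts in every library.

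Of 14 genes of MHC class II and dendritic cells downstream of IRF4 and IRF8, 11 were tested, 8 rose and 0 fell, with a median of 3.83. Mgl2, a C-type lectin, averaged 176 ± 109 CPM in ICAM1-high libraries and 1.58 ± 0.856 CPM in ICAM1-low libraries (log2 fold change 6.79 ± 0.69; edgeR adjusted p = 0.00449), and the class II chains H2-Eb1 and H2-Aa had log2 fold changes of 3.84 ± 0.50 and 3.47 ± 0.50 (edgeR adjusted p = 0.00992 and 0.0119). The other 5 were H2-DMa, H2-Ab1, Cd74, Ciita and H2-DMb1, so 7 of the 8 belong to class II presentation. Without single libraries 1 to 8 of the list rose, with 1 in the fit that left out ICAM1-low replicate 1 and 5 in the fit that left out ICAM1-low replicate 2. Clec9a, Cd209a and Flt3, which mark dendritic cells, were too low to be tested, at no more than 3.52 CPM in any library.

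Of 12 macrophage genes linked to MAF, all 12 were tested, 5 rose and 0 fell, with a median of 2.25. The mannose receptor gene Mrc1 averaged 592 ± 136 CPM in ICAM1-high libraries and 46.4 ± 10.1 CPM in ICAM1-low ones (SD, n = 4 each; log2 fold change 3.67 ± 0.43; edgeR adjusted p = 0.00749). The complement genes C1qb and C1qc had log2 fold changes of 4.27 ± 0.56 and 4.02 ± 0.59 (edgeR adjusted p = 0.00992 and 0.0124), and C1qa and Pf4 also rose. Without ICAM1-low replicate 1 none passed, and without ICAM1-high replicate 1 or ICAM1-low replicate 2 there were 3.

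The 14 genes that depend on PU.1 split in direction: 2 rose, 0 fell, 7 values were positive and 7 negative, and the median was -0.08. Cd68, a lysosomal glycoprotein gene of macrophages, and Fcgr1, the high-affinity Fc receptor gene, rose (2.73 ± 0.56 and 3.36 ± 0.73; edgeR adjusted p = 0.0409 and 0.0486), whereas Csf3r, the G-CSF receptor gene of granulocytes, had a value of -2.68 ± 0.76 (edgeR adjusted p = 0.114). DESeq2 called 3 genes of the list higher and 1 lower, and limma-voom 4 higher and 0 lower. Csf3r passed the threshold with DESeq2 (-2.78, adjusted p = 0.00397) and with no filter on low counts (-2.61, edgeR adjusted p = 0.0351). The library labelled ICAM1-low replicate 5 had 9418 CPM of Csf3r, the other 3 ICAM1-low libraries 997 to 1810 CPM, and the value was -1.35 without the first of these (edgeR adjusted p = 0.0837). The calls of Cd68 and Fcgr1 were lost with RLE scaling (edgeR adjusted p = 0.0528 and 0.0575) and in 6 and 7 of the 8 fits without a single library. Both calls held without the library labelled ICAM1-low replicate 5.

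Markers of whole cell types were summed in each library to stand beside these values. The marker lists share genes with the lists above, so the sums are not separate from those results. Among others, Mrc1, C1qa, C1qb, C1qc, Pf4 and Cd68 are macrophage markers here, and Ngp, Cd177 and Ltf are neutrophil markers. Summed over 14 macrophage markers, ICAM1-high libraries held 5162 to 15548 CPM and ICAM1-low libraries 651 to 1076 CPM, and the means differed 11.1-fold (two-sided exact permutation test, p = 0.0286, the lowest possible with 4 libraries a group, adjusted over 10 lists to p = 0.0571). None of these markers was at 0 in all ICAM1-low libraries. The sum of 15 neutrophil markers was 2066 to 4939 CPM in ICAM1-high libraries and 7957 to 39088 CPM in ICAM1-low libraries, with the highest in the library labelled ICAM1-low replicate 5 (exact permutation p = 0.0286, adjusted p = 0.0571).

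Dendritic markers (11 genes) summed to 3288 to 6866 CPM in ICAM1-high libraries and 233 to 529 CPM in ICAM1-low libraries (exact permutation p = 0.0286, adjusted p = 0.0571). Nearly all of this sum came from 4 class II genes also counted above (Cd74, H2-Aa, H2-Ab1 and H2-Eb1), which macrophages and B cells carry as well. Among the other 7, Flt3, Xcr1, Clec9a, Cd209a and Siglech stayed at or under 10.9 CPM in every library, with Flt3 at 0 in all ICAM1-low libraries, and Ccr7 was the highest at 56.5 CPM.

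The 7 monocyte markers did not share a direction. Ccr2, Cx3cr1 and Ms4a4c rose (edgeR adjusted p = 0.00992, 0.0239 and 0.0348), with Ccr2 at 274 to 448 CPM in ICAM1-high libraries and at 13.6 to 44.8 CPM in ICAM1-low libraries. Ly6c2 fell (edgeR adjusted p = 0.0492), with 6.76 to 33.6 CPM in ICAM1-high libraries and 58.2 to 143 CPM in ICAM1-low libraries. Their sum was 2741 to 5162 CPM in ICAM1-high libraries and 6721 to 14898 CPM in ICAM1-low libraries (exact permutation p = 0.0286, adjusted p = 0.0571), most of it Fn1, the fibronectin gene, at 1730 to 3516 CPM in ICAM1-high libraries and at 6327 to 13831 CPM in ICAM1-low libraries.

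Lymphocytes also carry Irf4, Irf8 and Maf. The T and NK list stood at 89.6 to 353 CPM in ICAM1-high libraries and 2.28 to 52.7 CPM in ICAM1-low libraries (exact permutation p = 0.0286, adjusted p = 0.0571). The B and plasma list stood at 277 to 2065 CPM in ICAM1-high libraries and 49.0 to 413 CPM in ICAM1-low libraries (exact permutation p = 0.0571, adjusted p = 0.0816), most of it Ighm, at up to 1647 CPM. ICAM1-high replicate 2 was highest for both lymphocyte lists and for Irf4 and Gfi1. Irf8 and Maf were highest in ICAM1-high replicate 1, where the T and NK sum was 149 CPM and the B and plasma sum 541 CPM. The part of other cell types in the differences of Irf8, Irf4, Maf and the C/EBP genes was not tested. Fibroblast (1214 CPM in ICAM1-high libraries and 2191 CPM in ICAM1-low libraries, exact permutation p = 0.0857), endothelial (43.4 CPM in ICAM1-high libraries and 14.4 CPM in ICAM1-low ones, exact permutation p = 0.0571), epithelial and tumour (15.8 CPM in ICAM1-high libraries and 20.4 CPM in ICAM1-low ones, exact permutation p = 0.971), and mast, basophil and eosinophil sums (17.2 CPM in ICAM1-high libraries and 25.1 CPM in ICAM1-low ones, exact permutation p = 0.4) gave adjusted p from 0.0816 to 0.971. The order of the epithelial and tumour means came from the library labelled ICAM1-low replicate 5 (65.1 CPM): the ICAM1-high libraries held 8.14 to 24.4 CPM and the other 3 ICAM1-low libraries 0.318 to 8.28 CPM.

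**Figure D5:**
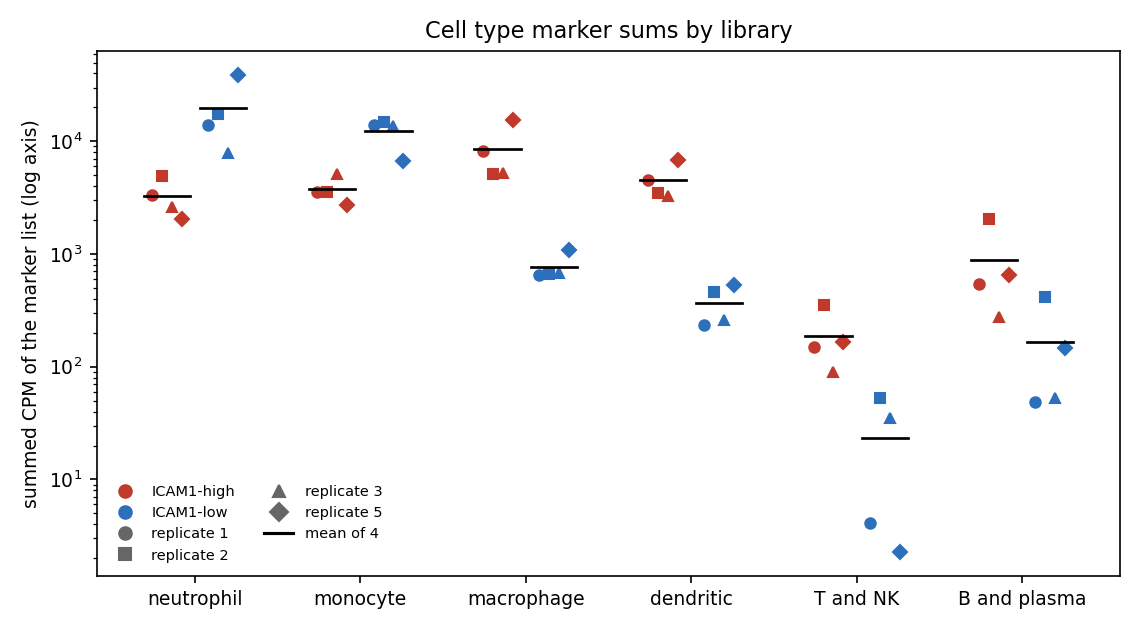
Summed CPM of 6 cell type marker lists in every library (vertical axis, logarithmic), ICAM1-high in red left of ICAM1-low in blue, with 1 symbol per replicate number and a black bar at the mean of 4. Macrophage, dendritic and T and NK sums are higher and neutrophil and monocyte sums lower in all ICAM1-high libraries, while the B and plasma sums overlap. The monocyte sum is mostly Fn1, and Ccr2, Cx3cr1 and Ms4a4c are higher in all ICAM1-high libraries.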

How the data were processed

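RNA sequencing libraries of 4 ICAM1-high and 4 ICAM1-low samples were compared. The authors deposited 1 table of estimated counts with a length for each gene. The submitters' processing notes name Trim Galore 0.6.6, Salmon 1.9.0 and build GRCm39 (mm39), but not the annotation or settings, or how the deposited length was averaged. Identifiers repeated with equal values were kept once (25669 rows, 25572 genes; 25343 found in the table of gene names). Rounded counts were filtered with filterByExpr (13575 genes), scaled by TMM and tested with edgeR 4.0.16 (R 4.3.3; glmQLFit and glmQLFTest, robust, group as the only term), adjusted by Benjamini-Hochberg, with 0.05 as threshold. The SE is the log2 fold change over the square root of F. CPM uses the TMM-adjusted library size. The SD and SE values include the spread among libraries, whereas the floors of detection cover counting error only. No molecular identifiers are mentioned.

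The 9 factors and all lists were chosen with earlier results of these data known. Named genes are the 9 factors, the 3 tested genes of each related list with the smallest p and the 2 genes most like each factor; other genes are named where a count or a limit needs them, chosen after their values were seen. Alternatives were RLE, upper-quartile and no scaling factors, DESeq2 1.42.0, limma-voom with sample quality weights (limma 3.58.1), other filters, a replicate term and leaving out libraries. A gene counted in the lists of relatives and of macrophage and dendritic regulators is not reported here by name. Only the main edgeR model was tested on simulated counts with known changes.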

Additional observations from a re-analysis of the deposited data

Results flagged for a closer look

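A search for libraries far from the rest of their group was made over 40 groups of 4 libraries (9 factors, Icam1 and 10 marker sums in each fraction). For normally spread values chance flags about 1 in 20, but CPM need not be spread so, and this rate is a rough guide only. The search found 9. Most were libraries numbered 5. Spi1 stood at 259 CPM in ICAM1-high replicate 5, where the next library had 82.7 CPM, and in the library labelled ICAM1-low replicate 5 at 324 CPM, where the next had 91.9 CPM. Cebpb stood at 196 CPM in the second of these, with the next at 47.4 CPM. Icam1 was at 137 CPM there, with the next at 18.6 CPM. In that library the sums of macrophage markers (1076 CPM, next 674 CPM) and of epithelial and tumour markers (65.1 CPM, next 8.28 CPM) were the highest of the ICAM1-low group, and the sum of monocyte markers (6721 CPM, of which Fn1 was 6327 CPM, next 13637 CPM) the lowest. Cebpa was at 172 CPM in ICAM1-high replicate 1, with the next at 110 CPM. Cebpe was at 0.495 CPM in ICAM1-high replicate 5 and at 0 in the other 3 ICAM1-high libraries. With 3 libraries at 0 any other value would be flagged, so this flag says nothing of its size.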

How the results depend on the processing

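Under 17 alternatives Irf8 kept a positive log2 fold change, from 3.43 to 3.91, and stayed past the threshold in all but the fit without ICAM1-low replicate 1. Cebpa (1.09 to 1.54) kept its sign and stayed short of the threshold in all 17, as did Cebpd (-1.59 to -0.94) and Cebpb (-2.05 to -0.43). Irf4 (2.90 to 4.47, no value with the stricter filter) and Maf (1.72 to 2.24) kept theirs too. The sign of Spi1 turned with upper-quartile scaling (0.051), library sizes only (0.26), limma-voom (0.24), the replicate block (0.080), without both libraries numbered 5 (0.18) and in 4 of the fits that left out 1 library, over which it ran from -0.72 to 0.82. The epithelial and tumour sum turned to a log2 ratio of 0.12 with library sizes only and 1.23 without both libraries numbered 5. The last of these leaves out the library labelled ICAM1-low replicate 5 (65.1 CPM, against 0.318 to 8.28 CPM in the other ICAM1-low libraries). Why that library stood apart, and why the other signs turned, was not tested.

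The 1 factor called higher became 3 with DESeq2 and 2 with limma-voom with sample weights, and 0 to 1 without single libraries; none was called lower (0 to 0). Of all genes, 166 higher and 37 lower became 584 and 649 with DESeq2, 480 and 376 with limma-voom, 280 and 261 with the replicate block, 258 higher with library sizes only, 120 lower with no filter, 61 lower with the stricter filter and 190 lower without both libraries numbered 5; without single libraries they ran from 4 to 337 higher (337 without the library labelled ICAM1-low replicate 5) and from 0 to 241 lower. The related lists, with 16 higher and 3 lower, gave 15 lower with DESeq2, 13 with limma-voom, 8 with no filter, 6 with the stricter filter and 6 with the replicate block, and 1 to 21 higher and 0 to 5 lower without single libraries. Fits with fewer libraries also have less to test with. Of called genes, 81.8% were higher; DESeq2 gave 47.4%, limma-voom 56.1%, the block 51.8% and no filter 67.1%. The labels do not say what the shared numbers mean. Same-numbered libraries deviated from their group means with r = -0.18, 0.11, 0.17 and 0.37 (replicates 1, 2, 3 and 5). Differently numbered libraries gave r from -0.37 to 0.17. The main test did not use the pairing, and fits with a replicate block are given beside it. With the replicate block Irf8 was 3.86 (adjusted p = 0.00819) and Maf 2.03 (adjusted p = 0.06). Irf5 (3.18, adjusted p = 0.0155) and Nr1h3 (4.46, adjusted p = 0.0352) passed with it. Cebpe and Gfi1 had too few counts to pass the filter with all libraries.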
